A study of Mus musculus with 6 samples.

Results

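Regulators of G protein signaling, the RGS proteins, shorten the signal of heterotrimeric G proteins. They speed up the hydrolysis of GTP by the activated G alpha subunit, so that the subunit rebinds its G beta and gamma partners and signaling from the receptor ends. In the heart they act downstream of adrenergic, angiotensin, endothelin and muscarinic receptors, which set contractility, heart rate and hypertrophic growth. The genes described here are the 10 *Rgs* genes *Rgs1*, *Rgs2*, *Rgs3*, *Rgs4*, *Rgs5*, *Rgs6*, *Rgs10*, *Rgs12*, *Rgs14* and *Rgs16*, out of 27307 genes with a symbol on the array. They were selected with the contrast between the groups already known, so their differences are given as a description without a test, and every probe that carries one of these symbols is accounted for. These were 23 of the 56605 non-control probes.

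RNA from mouse myocardium was measured on 6 one-colour Agilent arrays, 3 per group. All hearts came from male C57BL/6J *Clk4*-cKO mice, in which exons 3 to 10 of the kinase gene *Clk4* are flanked by loxP sites (*Clk4* fl/fl) and are removed by a tamoxifen-inducible Cre under the cardiomyocyte α-MHC promoter (α-MHC-MerCreMer). The methods of the study give tamoxifen at 25 mg/kg on 5 consecutive days from an age of 6 to 8 weeks, and an intravenous adeno-associated virus (AAV, serotype 9, with the CMV promoter, which is active in many cell types) in mice 5 weeks old. The NEXN-WT group, the control, received AAV NEXN-WT, which carries wild-type nexilin, a protein of cardiomyocytes that binds filamentous actin. The NEXN-S437E group received AAV NEXN-S437E, a mutant that mimics phosphorylated nexilin. Both groups therefore carried the *Clk4* deletion and an added *Nexn*, and neither could be set against an unaltered heart. The comparison asks which transcripts differ in *Clk4*-cKO hearts when the added nexilin mimics the phosphorylated form.

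Each value below is a log2 signal relative to the 75th percentile of its array, so a value of 0 is the brightness at that percentile, and only values of the same probe are compared. A probe was tested when it was well above background on all 3 arrays of a group. Of the 23 probes, 15 met this, all on all 6 arrays, and they covered 9 of the 10 genes. The array's 75th percentile lay between 106.9 and 264.5 units, lowest on NEXN-S437E replicate 1 and highest on NEXN-WT replicate 1. NEXN-WT replicate 1 stood apart from its group, with 488 of 22998 tested probes over 1 log2 unit below and 685 over 1 unit above the mean of the other 2 arrays. NEXN-WT replicate 3 had 436 that far below and 162 above, and replicate 2 had 158 and 84. On NEXN-S437E replicate 1, 356 probes were that far below and 118 that far above, against 84 to 114 in either direction on the other NEXN-S437E arrays. All arrays shared 1 slide. NEXN-S437E replicate 1 lay in the first row of the slide beside the 3 arrays of the NEXN-WT group, and the other NEXN-S437E arrays lay in the second row. RNA of whole tissue cannot tell fewer cells of a type from less RNA per cell.

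The probe of *Rgs2* on which the results turn reads 60 bases in build mm9 at chr1:145848830-145848889, on the minus strand, and the deposited annotation assigns it to the *Rgs2* transcript. It is shown beside the tested probe of another family member that shares its longest run of letters. Only probe sequences were compared, not whole transcripts, so the runs cannot show whether related genes share signal. The capitals mark that run, 8 bases long. The runs that the probe shared with the other 13 tested probes of these genes were 5 to 7 bases long.
Rgs2 A_55_P2109857: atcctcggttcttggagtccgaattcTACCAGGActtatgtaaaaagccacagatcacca
Rgs6 A_55_P2161140: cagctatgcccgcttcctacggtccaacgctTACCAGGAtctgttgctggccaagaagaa
The *Rgs6* sequence lies at chr12:84234671-84234730 on the plus strand of mm9. Both are the deposited probe sequences.

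*Rgs2* was the member with higher signal in NEXN-S437E hearts. *Rgs2* encodes an RGS protein of the R4 group that acts mainly on G alpha q, the subunit that couples alpha-1 adrenergic, angiotensin and endothelin receptors to phospholipase C. Its log2 signal was 2.46, 2.56 and 2.37 on NEXN-WT replicates 1, 2 and 3, and 3.64, 3.60 and 3.55 on the NEXN-S437E replicates. Every NEXN-S437E array was above every NEXN-WT array, and both groups were tight, with an SD of 0.10 for NEXN-WT and 0.045 for NEXN-S437E (n = 3 each). The difference was 1.14 on the log2 scale (SE 0.14), a 2.20-fold higher mean. No other probe of the 15 kept the groups apart. Of the whole tested set, 27.5% of probes had groups that did not overlap, 0.717% were past 2-fold and an unadjusted p of 0.05 on the higher side, and 0.17% were past an adjusted p of 0.05 in limma. The *Rgs2* probe met all 3, and nothing is read from this because the gene was chosen on this contrast. Its limma adjusted p was under 0.05 in the main fit but in only 7 of 18 alternatives.

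**Figure D1:**
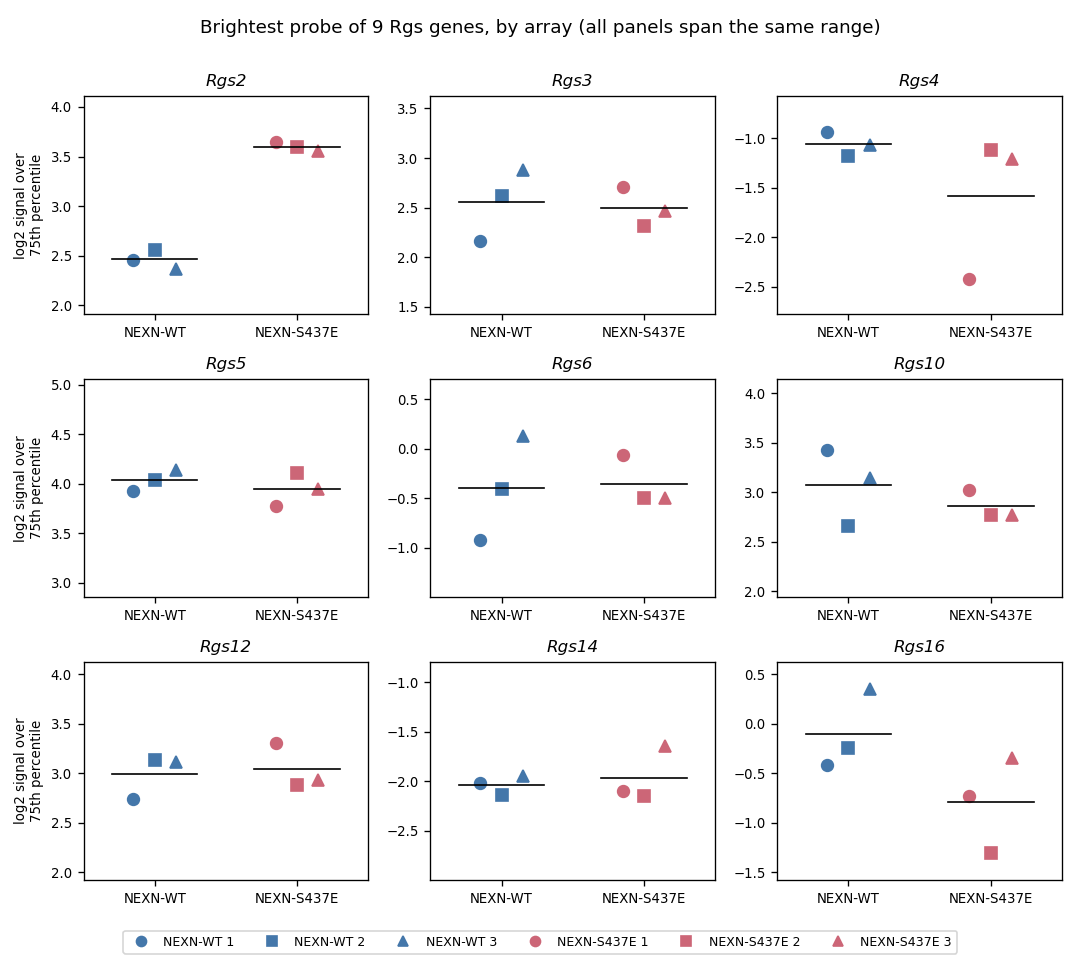
Log2 signal relative to the 75th percentile of the array (y axes, all of the same span) for the brightest probe of 9 *Rgs* genes in NEXN-WT (blue) and NEXN-S437E (red) hearts, with 1 marker per array and bars for the group means. *Rgs2* is the gene whose groups are apart, and the low point of *Rgs4* is NEXN-S437E replicate 1 at -2.42.

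The size of the *Rgs2* difference did not rest on one array. Leaving out each array in turn gave 1.09 to 1.19, and leaving out NEXN-WT replicate 1 gave 1.13. In the values that the authors normalized and deposited the difference was 1.05. The slide row block gave 1.18, but there NEXN-S437E replicate 1 alone stands for its group. Over all 18 alternatives the *Rgs2* difference stayed between 1.02 and 1.19. Those that change only the error term or the set of tested probes cannot move it. The array holds a second *Rgs2* probe, A_52_P92568, which carries no transcript accession in the deposited annotation and stayed below the detection limit on all 6 arrays, so the *Rgs2* result rests on 1 probe. That second probe read -5.42, -5.66 and -5.61 with NEXN-WT and -5.11, -5.71 and -5.36 with NEXN-S437E, overlapping values at the bottom of the scale.

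Cardiomyocyte markers had positive differences, as *Rgs2* did. All 6 of 6 (*Myh6*, *Tnnt2*, *Tnni3*, *Actc1*, *Ryr2* and *Atp2a2*) were well above background. All had a positive difference, as did 13870 of the 22998 tested probes. The median of the 6 was 0.42 on the log2 scale and none was past 2-fold. Their summed signal, in units of the 75th percentile, was 1126 to 1683 in NEXN-WT and 1983 to 2019 in NEXN-S437E hearts. NEXN-WT replicate 1 gave the lowest sum, while its *Rgs2* value lay between those of the other NEXN-WT arrays. *Rgs2* is also known from smooth muscle, and the 4 smooth muscle markers summed to 99.3 to 146.3 in NEXN-WT and 88.8 to 151.6 in NEXN-S437E hearts and overlapped. Fibroblast markers ran the other way, with a negative difference in 5 of 5 (median -0.74) and *Col1a1*, a collagen gene, past 2-fold at -1.82 (SE 0.30, limma adjusted p = 0.0794). The fibroblast sums were 439.4 to 603.8 in NEXN-WT and 377.1 to 408.4 in NEXN-S437E hearts, without overlap, with *Dcn* at 54.2% to 80.0% of the sum. Without *Dcn* they were 138.9 to 276.7 and 75.6 to 94.7. The sums of the 5 endothelial markers (46.1 to 68.4 and 58.0 to 66.9) and of the 4 neutrophil markers (31.0 to 37.7 and 34.9 to 44.0, at least 89.6% of it *Csf3r*) overlapped. The part of cell composition in the *Rgs2* difference was not tested.

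No tested probe of the other R4 genes was past 2-fold. *Rgs5* encodes an R4 protein used as a marker of pericytes, the cells that wrap capillaries. Its log2 signal was 3.93, 4.04 and 4.14 with NEXN-WT and 3.78, 4.11 and 3.95 with NEXN-S437E. The groups overlapped and the difference was -0.09 (SE 0.15). The 5 pericyte markers, all well above background, summed to 52.9 to 66.4 in NEXN-WT and 61.4 to 68.1 in NEXN-S437E hearts, and none of them passed 2-fold. Of the 5, 3 had a positive and 2 a negative difference. The groups did not overlap for *Abcc9*, at 0.53 (SE 0.17, limma adjusted p = 0.211), and *Pdgfrb*, at -0.36 (SE 0.14, limma adjusted p = 0.267).

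*Rgs16*, an R4 gene whose protein acts on G alpha i and G alpha q and which is induced by many stimuli, had the lowest difference of the 15 probes. Its log2 signal was -0.42, -0.25 and 0.35 with NEXN-WT and -0.72, -1.30 and -0.34 with NEXN-S437E. The groups overlapped, since NEXN-S437E replicate 3 lay above NEXN-WT replicate 1. The difference was -0.68 (SE 0.29), within 2-fold, and ranged from -0.91 to -0.43 with single arrays left out. The *Rgs16* difference was negative in all 18 alternatives.

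*Rgs4* encodes a small R4 protein that limits signaling through G alpha i and G alpha q. Its log2 signal was -0.93, -1.18 and -1.07 with NEXN-WT and -2.42, -1.12 and -1.21 with NEXN-S437E. Only NEXN-S437E replicate 1 was low, and replicate 2 lay within the NEXN-WT range. The mean difference of -0.52 (SE 0.33) became -0.10 without that array, -0.18 with normexp background correction and -1.36 with the slide row as a block, where that array alone stands for its group.

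*Rgs3*, a gene with several transcripts whose R4-group products act on G alpha i and G alpha q, was read by 5 probes, 4 of them above background. The probe A_55_P2027102 gave 2.58, 2.80 and 2.74 with NEXN-WT and 1.12, 2.39 and 2.68 with NEXN-S437E. NEXN-S437E replicate 1 was low here as in *Rgs4*, and without it the difference went from -0.64 (SE 0.37) to -0.17. With the slide row as a block it was -1.59, and with array weights -0.30. The other 3 probes did not drop on that array. The brightest, A_55_P2027117, gave 2.16, 2.61 and 2.88 with NEXN-WT and 2.70, 2.32 and 2.47 with NEXN-S437E, a difference of -0.06 (SE 0.21) between overlapping groups. The differences of the remaining 2 were -0.22 and -0.15. The fifth probe, A_55_P2027112, was detected above background nowhere.

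The *Rgs3* and *Rgs4* probes that dropped on NEXN-S437E replicate 1 both hold the letters AATAAA, and their 30-base windows are shown with the *Rgs12* probe that holds them too, for contrast. The capitals mark AATAAA, which in a transcript can be a polyadenylation signal.
Rgs3 A_55_P2027102: agtgctgaggcaAATAAAaggcctgtgata
Rgs4 A_55_P2026734: atgatgacagtaAATAAAtgcttcctacaa
Rgs12 A_55_P2002122: ttcttccaagagaAATAAActctagagctc
The windows lie in mm9 at chr4:62364015-62364044 (plus strand), chr1:171671613-171671642 (minus strand) and chr5:35376062-35376091 (plus strand). The *Rgs12* probe was highest on NEXN-S437E replicate 1, unlike the other two. AATAAA was found in 3 of the 15 tested *Rgs* probes and in 11.62% of 22992 tested probes, and its other-strand form TTTATT in 2 of 15 and 4.171%. On NEXN-S437E replicate 1, 2.171% of the probes with AATAAA and 1.467% of those without it were over 1 log2 unit below the other arrays of the group. What lowered the *Rgs3* and *Rgs4* probes there was not tested.

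**Figure D2:**
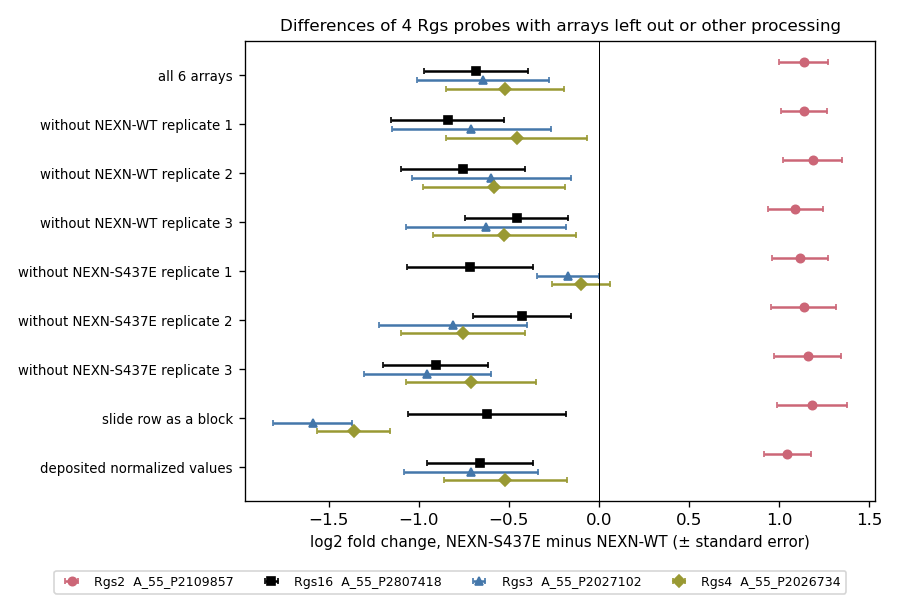
Log2 fold change, NEXN-S437E minus NEXN-WT, with its standard error (x axis) for 4 *Rgs* probes with all 6 arrays, with each array left out, with the slide row as a block and in the deposited normalized values (y axis). *Rgs2* stays between 1.05 and 1.19, while the probes of *Rgs3* and *Rgs4* move to -0.17 and -0.10 without NEXN-S437E replicate 1.

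*Rgs1*, an R4 gene of activated lymphocytes, was the member without a tested probe. Its probe A_51_P260683 read -3.21, -5.17 and -4.51 with NEXN-WT and -5.18, -5.63 and -5.26 with NEXN-S437E. It was well above background on NEXN-WT replicate 1 alone. The faintest signals called above background on the NEXN-S437E arrays were brighter than the NEXN-WT mean, so no fold could be given. Of 5 tested T cell markers, 3 were lower by over 2-fold with an unadjusted p of 0.05 in the same hearts (2.16% of all tested genes were). Among these 3, *Cd3g* was above background only in NEXN-WT hearts and was tested through that group alone. *Cd4* had a difference of 0.22 (SE 0.15, limma adjusted p = 0.474). The 6 T cell markers summed to 2.63 to 3.88 in NEXN-WT and 1.43 to 1.66 in NEXN-S437E hearts. *Jchain*, a plasma cell gene, was above background on the 3 NEXN-WT arrays alone and at least 4.15-fold lower with NEXN-S437E. It too was tested through NEXN-WT alone, so no p is given. Of the 3 tested genes of the B and plasma cell list, 2 had a negative and 1 a positive difference, *Mzb1* at 0.15 (SE 0.23). Any part of lymphocytes in the *Rgs1* readings was not tested.

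*Rgs6* is the R7 member, whose protein works bound to G beta 5 and, in pacemaker and atrial cells, limits the muscarinic slowing of the heart. Its brightest probe gave -0.92, -0.40 and 0.13 with NEXN-WT and -0.07, -0.49 and -0.50 with NEXN-S437E, a difference of 0.05 (SE 0.27). A second tested probe, the one shown above, gave -1.79, -1.74 and -1.15 with NEXN-WT and -1.59, -1.96 and -1.69 with NEXN-S437E, a difference of -0.19 (SE 0.21). In both probes NEXN-WT spanned most of the range and the groups overlapped. The last 2 of its 4 probes were above background on no array. Of 4 markers of nodal cells 2 were tested, and the 4 summed to 0.466 to 0.481 in NEXN-WT and 0.468 to 0.530 in NEXN-S437E hearts. Of 4 atrial markers 2 were tested, both with a negative difference. *Nppa*, the gene of atrial natriuretic peptide, which failing ventricles also express, fell by 1.40 (SE 0.17, limma adjusted p = 0.0268), and *Myl4* differed by -0.63 (SE 0.22, limma adjusted p = 0.229). The 4 atrial markers summed to 393.7 to 455.7 in NEXN-WT and 142.8 to 197.4 in NEXN-S437E hearts, but *Nppa* made up 98.4% to 99.2% of that sum. The other 3 summed to 3.2 to 5.0 and 2.3 to 3.1. The part of atrial tissue in the *Rgs6* readings was not tested.

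The brightest probes of the 3 R12 genes differed by -0.22 to 0.07. *Rgs10* encodes a small R12 protein known mostly from microglia, macrophages and lymphocytes. Its brightest probe gave 3.42, 2.66 and 3.15 with NEXN-WT and 3.02, 2.77 and 2.77 with NEXN-S437E. NEXN-WT replicate 1 was highest and replicate 2 lowest, so the NEXN-S437E arrays fell inside the NEXN-WT range. The difference was -0.22 (SE 0.21), but -0.05 once NEXN-WT replicate 1 was left out. Leaving out NEXN-WT replicate 2 instead gave -0.43, and the groups then did not overlap. A second probe followed the first across the arrays and differed by -0.18 (SE 0.19), and its last probe was not well above background. The 6 macrophage markers summed to 171.1 to 231.3 in NEXN-WT and 200.1 to 215.4 in NEXN-S437E hearts, with *Lyz2* making up 68.5% to 72.8% of the sum. The other 5 summed to 52.4 to 72.8 and 58.3 to 60.5. Of the 6, 3 had a positive and 3 a negative difference, and *Fcgr1*, an immunoglobulin receptor gene, differed by -0.75 without overlap (SE 0.21, limma adjusted p = 0.168). The part of macrophages in the *Rgs10* readings was not tested.

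*Rgs12* encodes a large R12 protein with several domains beside the RGS domain. Its brightest probe gave 2.73, 3.14 and 3.11 with NEXN-WT and 3.31, 2.88 and 2.93 with NEXN-S437E, a difference of 0.05 (SE 0.19). NEXN-WT replicate 1 was the lowest array and NEXN-S437E replicate 1 the highest. A second tested probe differed by 0.04 (SE 0.22) in the same order of high and low arrays. Of its other probes A_55_P2717555 was above background on no array, and A_55_P2002129 was so on NEXN-S437E replicate 2 alone. With 1 array above background and overlapping groups, no fold is given for that last probe.

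*Rgs14* encodes an R12 scaffold protein that also binds Ras-family GTPases. Its probe gave -2.02, -2.14 and -1.95 with NEXN-WT and -2.11, -2.15 and -1.65 with NEXN-S437E. The groups overlapped, with NEXN-S437E replicate 3 above the rest, and differed by 0.07 (SE 0.18).

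In all, 5 of the 15 tested probes had a positive difference, against 13870 of all 22998 tested probes, and 10 a negative one. The median of the 15 was -0.15 on the log2 scale against 0.08 over all tested probes. None was past 2-fold and an unadjusted p of 0.05 on the lower side, where 1.81% of all tested probes were. Outside *Rgs2*, the differences ran from -0.68 to 0.07. The sign of 7 of the 15 differences, those of *Rgs12*, *Rgs6*, *Rgs14* and 2 probes of *Rgs3*, changed in at least 1 of the 18 alternatives. Without NEXN-S437E replicate 1 the *Rgs16* probe was the only one of these below -0.5.

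**Figure D3:**
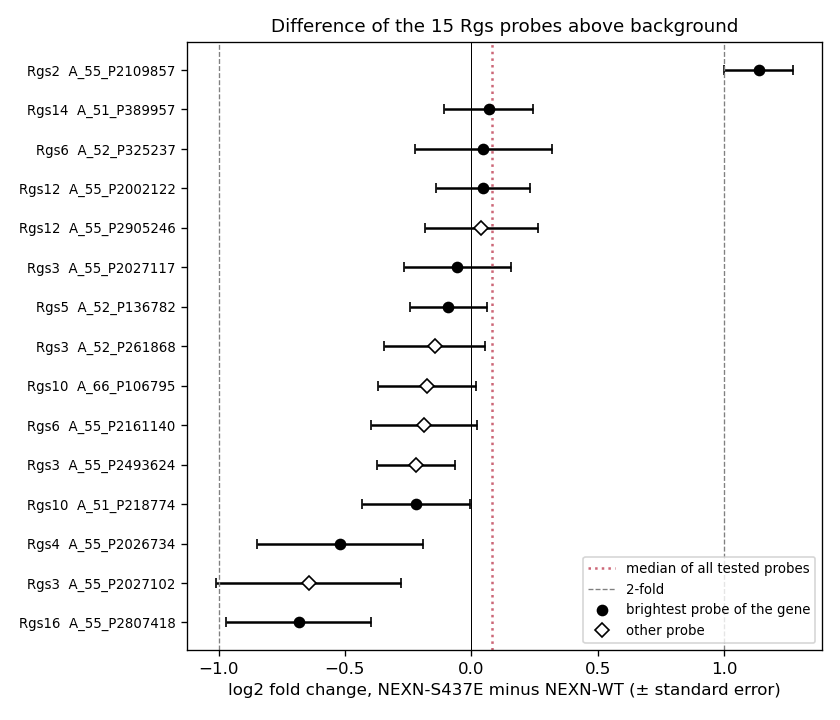
Log2 fold change, NEXN-S437E minus NEXN-WT, with its standard error (x axis) for the 15 tested probes (y axis, gene and probe), with filled circles for the brightest probe of a gene and open diamonds for others. *Rgs2* at 1.14 lies past the dashed 2-fold line, and the other 14 lie between -0.68 and 0.07.

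Over the 6 arrays, Pearson's r was 0.99 for the 2 tested probes of *Rgs10*, 0.96 for those of *Rgs12* and 0.77 for those of *Rgs6*. The 6 pairs of *Rgs3* probes ranged more widely. A_55_P2027117 and A_52_P261868 had an r of 0.97. A_55_P2027102, the probe that dropped on NEXN-S437E replicate 1, had -0.18 and 0.02 with those probes and 0.64 with A_55_P2493624, and the 2 pairs left had 0.56 and 0.73. Between genes, the brightest probes of *Rgs3* and *Rgs6* had an r of 0.96 (Spearman's rho 0.94), *Rgs3* and *Rgs12* 0.86, and *Rgs6* and *Rgs12* 0.83. All 3 genes were lowest on NEXN-WT replicate 1, and the values of a pair share the array and its scaling. *Rgs2* had an r of -0.72 with *Rgs16* and -0.56 with *Rgs4*. These correlations describe 6 points each and carry no test.

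**Figure D4:**
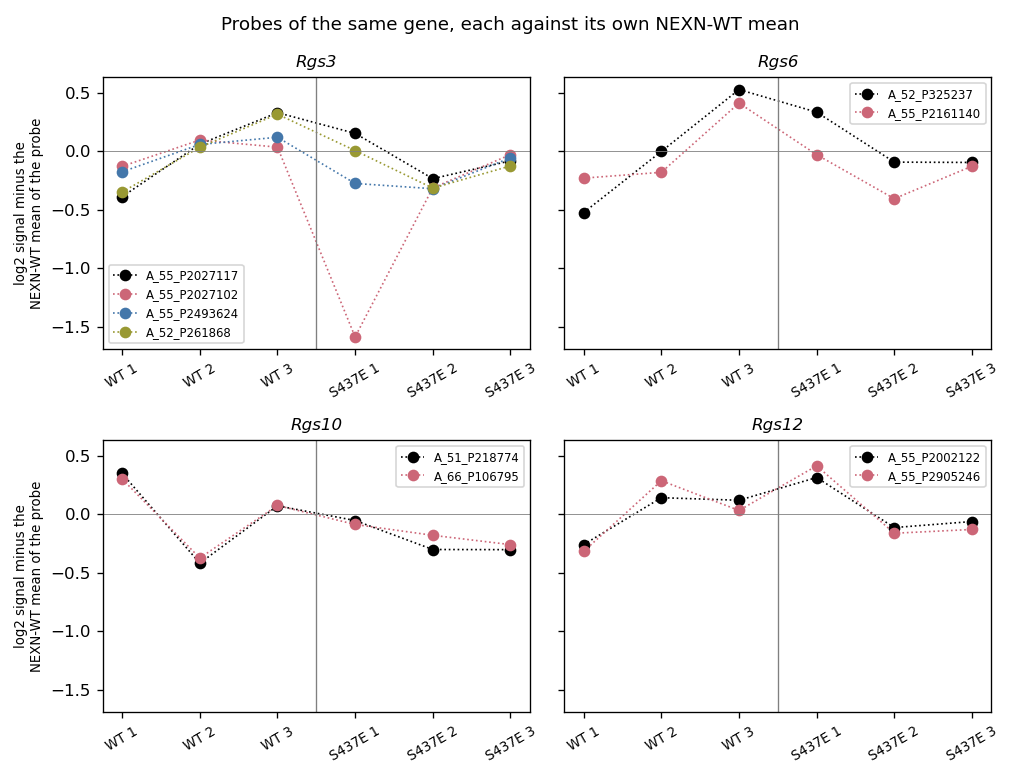
Log2 signal minus the NEXN-WT mean of the same probe (y axes) on the 6 arrays (x axes) for the tested probes of *Rgs3*, *Rgs6*, *Rgs10* and *Rgs12*, with 1 colour per probe. The probe A_55_P2027102 of *Rgs3* leaves the other 3 on NEXN-S437E replicate 1, while both probes of *Rgs10* and of *Rgs12* stay together.

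The genes whose brightest probe ran most like a member's over the 6 arrays were found among 13717 genes. For *Rgs2* this was *Hspb9* (r = 0.990), for *Rgs3* *Rab40c* (0.994) and for *Rgs4* *Alkbh2* (0.997). For *Rgs5* it was *Shb* (0.990), for *Rgs6* *St7* (0.993) and for *Rgs10* *Ube2c* (0.996). For *Rgs12* it was *Rela* (0.995), for *Rgs14* *4833422C13Rik* (0.981) and for *Rgs16* *Sh3bgr* (0.988). An r over 0.95 was reached by 63 genes for *Rgs2*, by 150 for *Rgs12* and by 2 for *Rgs14*.

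The members also share positions that the choice did not use. By their brightest probes, 5 of the 10 lie on chromosome 1. The probes of *Rgs2* and *Rgs1* are 243072 bases apart and those of *Rgs5* and *Rgs4* 48528 bases apart in mm9. *Rgs2* was higher with NEXN-S437E, and its neighbour *Rgs1* was not above background on those arrays. *Rgs4* was low on NEXN-S437E replicate 1 by 1.26 log2 units against the mean of the other 2 arrays, while *Rgs5* was low by 0.25.

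The rest of the pathway was read from lists of 84 other genes, 63 of them tested by their brightest probe. None was past 2-fold and an unadjusted p of 0.05 on the higher side (0.765% of 13734 genes were) and 2 were on the lower side (2.16% of genes were). None had an adjusted p under 0.05 in limma with Benjamini-Hochberg adjustment over all probes or in the methods' t-test, and in limma 12 of the 63 had an unadjusted p under 0.05 (17.9% of all tested genes did). The median difference of the 63 was 0.01 on the log2 scale, against 0.08 over all tested probes.

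Among the other *Rgs* genes, 3 of 11 were tested. *Rgs17*, a member of the RZ group, had the smallest p, with a difference of 0.16 (SE 0.21, limma adjusted p = 0.701). The other two, *Rgs19* and *Rgs20*, differed by -0.04 and 0.20. Of the 8 partners and turnover genes of RGS proteins, 7 were tested and 1 had an unadjusted p under 0.05. This was *Prkg1*, the cGMP-dependent kinase that phosphorylates and activates RGS2. Its log2 signal was 0.00, 0.03 and -0.09 with NEXN-WT and -0.36, -0.51 and -0.76 with NEXN-S437E, without overlap, a difference of -0.52 (SE 0.16, limma adjusted p = 0.192). It was -0.29 with normexp and -0.34 with the slide row as a block.

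Of 13 G alpha genes, the targets of RGS proteins, 11 were tested and the median difference was -0.05. *Gnao1*, which encodes G alpha o, had the smallest p. Its log2 signal was 1.04, 0.79 and 0.61 with NEXN-WT and 0.26, -0.18 and 0.19 with NEXN-S437E, a difference of -0.72 (SE 0.18, limma adjusted p = 0.146). *Gnaq*, the subunit on which RGS2 mainly acts, gave -0.77, -1.60 and -1.71 with NEXN-WT and -2.33, -1.12 and -1.44 with NEXN-S437E. These groups overlapped and differed by -0.27 (SE 0.36, limma adjusted p = 0.706), with replicate 1 of each group furthest out. Of 15 G beta and gamma genes, 13 were tested. *Gng8*, a gamma subunit, gave 1.34, -0.26 and -0.13 with NEXN-WT and -1.48, -2.87 and -2.08 with NEXN-S437E, which do not overlap. It fell by 2.46 (SE 0.48, limma adjusted p = 0.104), and the value was -1.95 without NEXN-WT replicate 1, its highest array, and -1.42 with normexp background correction.

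Receptor kinases and arrestins, which end signaling at the receptor, had a negative difference in 6 of 6 tested genes, none past 2-fold, with a median of -0.18. *Grk5*, a receptor kinase abundant in heart, gave 1.84, 1.46 and 1.56 with NEXN-WT and 1.03, 1.27 and 1.12 with NEXN-S437E, a difference of -0.48 (SE 0.16, limma adjusted p = 0.214). Of 12 tested effectors 8 had a positive difference and 4 a negative one, with a median of 0.07, and *Adcy7* alone was past 2-fold. For this count and that of the receptors below, 13870 of all 22998 tested probes had a positive difference. *Adcy7*, an adenylyl cyclase, gave 3.35, 2.09 and 2.25 with NEXN-WT and 1.64, 1.39 and 1.49 with NEXN-S437E. It fell by 1.05 (SE 0.31, limma adjusted p = 0.189), but by 0.66 without NEXN-WT replicate 1 and by 0.99 without NEXN-S437E replicate 2, both within 2-fold. It also missed the call with the slide row as a block (-0.92), in the methods' t-test and, within 2-fold at -0.74, with array weights. *Kcnj3*, a subunit of the potassium channel that G beta gamma opens, had a smaller unadjusted p in the other direction. It gave -1.92, -1.91 and -1.68 with NEXN-WT and -1.1, -1.22 and -0.80 with NEXN-S437E, without overlap, a difference of 0.80 (SE 0.17, limma adjusted p = 0.110). Its second probe differed by 1.51 (limma adjusted p = 0.203), and with normexp the first differed by 0.49. Of 11 tested receptors 8 had a positive difference and 3 a negative one, none past 2-fold, with a median of 0.33. *S1pr2*, a sphingosine-1-phosphate receptor, gave -1.38, -1.63 and -1.65 with NEXN-WT and -2.76, -2.07 and -2.30 with NEXN-S437E, a difference of -0.82 (SE 0.20, limma adjusted p = 0.139), but -0.17 with normexp background correction and, past 2-fold, -1.20 with the slide row as a block. The angiotensin receptor gene *Agtr1a* gave 2.02, 2.75 and 3.12 with NEXN-WT and 3.64, 3.27 and 3.26 with NEXN-S437E, a difference of 0.76 (SE 0.28, limma adjusted p = 0.238). The alpha-1 adrenergic receptor gene *Adra1a* gave -4.18, -3.00 and -2.91 with NEXN-WT, where 2 arrays were above background, and -2.45, -2.25 and -2.86 with NEXN-S437E, a difference of 0.84 (SE 0.34, limma adjusted p = 0.270). *Adra1a* was tested only through NEXN-S437E, the group where it was higher, so little weight can be put on its test. Neither *Agtr1a* nor *Adra1a* overlapped between the groups. Single arrays moved both, with *Agtr1a* at 0.46 and *Adra1a* at 0.43 when NEXN-WT replicate 1 was left out, and at 1.00 and 1.07, past 2-fold, when NEXN-WT replicate 3 was. With normexp background correction *Adra1a* differed by 0.41. *Kcnj3*, *Agtr1a* and *Adra1a* were named after their values were seen. Array weights brought *Adcy7*, *Kcnj3*, *S1pr2*, *Gng8*, *Gnao1*, *Prkg1* and *Gnb3* past the adjusted p, in a fit where 1587 of 22998 probes passed it.

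**Figure D5:**
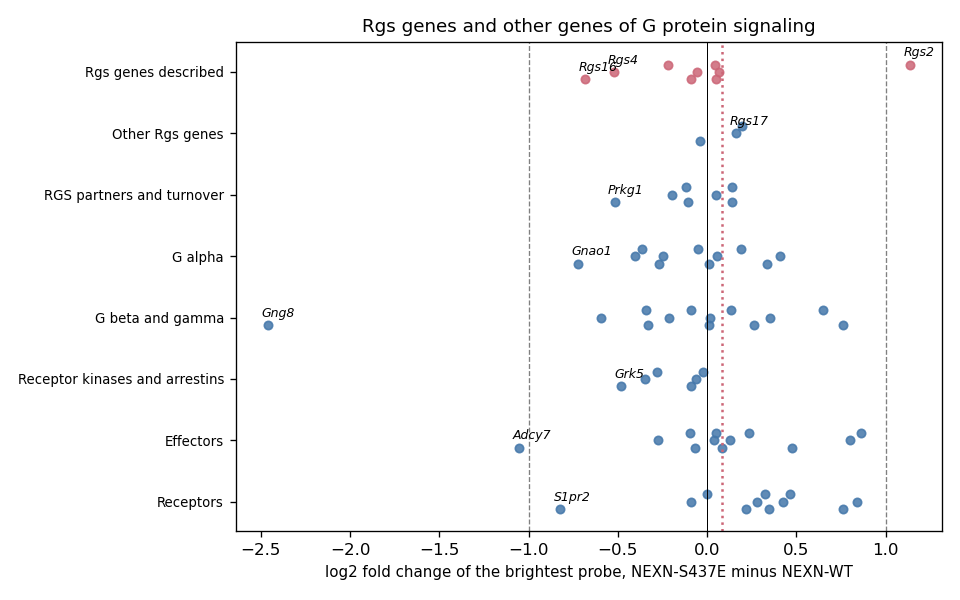
Log2 fold change of the brightest probe, NEXN-S437E minus NEXN-WT (x axis), for the 9 tested *Rgs* genes described here (red) and for tested genes of 7 other lists (blue), 1 point per gene, with dashed lines at 2-fold and a dotted line at the median of all tested probes. *Rgs2* lies past 2-fold on the higher side, and *Gng8* and *Adcy7* past it on the lower side.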

How the data were processed

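RNA of 3 NEXN-WT and 3 NEXN-S437E samples was labelled with Cy3 and hybridised to Agilent arrays. Groups came from the sample titles, and p-values measure only the spread between these samples. The array files hold the background-subtracted spot intensity that the authors obtained with Agilent Feature Extraction 10.7.1.1, per the submitters' processing notes. A table deposited for the whole series holds normalized log2 values of the authors, whose 6 columns have the same sorted values, and was used as an alternative. Outlier and control spots were left out, log2 intensity was centred on the 75th percentile of each array and spots of a probe were averaged. limma 3.58.1 in R 4.3.3 was fitted over 22998 probes with Benjamini-Hochberg adjustment, after a test on simulated data. The depth of an array is not a count, and 3 arrays per group limit the precision.

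The 10 members and all lists were chosen with earlier results of these data known. The genes named were all members with every probe, from each pathway list the genes past 2-fold and an unadjusted p of 0.05 or past the adjusted p (at most 4) or else that of smallest p, with *Gnaq*, *Rgs19*, *Rgs20*, *Kcnj3*, *Agtr1a*, *Adra1a* and *Gnb3* added after their values were seen, and the gene most correlated with each member. The brightest probe of a gene had the highest mean over 6 arrays. Results were recomputed with the deposited values, with quantile normalization, with background correction by normexp at an offset of 50, with a percentile of detected probes alone, with 2 other filters, outlier spots kept, the methods' t-test, replicate and slide row blocks, array weights, an intensity trend, each array left out, a 1.5-fold threshold and all probes of a gene. The placing of probes in RefSeq proteins was not run because no protein table was used here. The B and plasma cell marker list as a whole is not reported here.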

Additional observations from a re-analysis of the deposited data

How the results depend on the processing

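*Rgs2* was the 1 member probe past 2-fold and an unadjusted p of 0.05 on the higher side in all 19 alternatives, which carries no weight as support because it was chosen on this contrast. On the lower side the count of member probes went from 0 to 2 with the slide row as a block (the probes of *Rgs3* and *Rgs4* that were low on NEXN-S437E replicate 1, the single array of its group in that row) and to 1 with a 1.5-fold threshold (*Rgs16*). The count past the adjusted p, 1, was 0 with quantile normalization, the deposited normalized values, no filter on dim probes, the methods' t-test and the replicate block. With single arrays left out it stayed at 1 without NEXN-WT replicate 1 and was 0 without any other array. The methods' t-test called 1 member probe higher and 0 lower at its own threshold of 2-fold and an unadjusted p of 0.05. For the other pathway genes, the count past 2-fold on the higher side went from 0 to 1 without a filter (*Adrb3*), to 2 with the slide row block (*Agtr1a* and *Adcy1*), to 1 with all probes of a gene (*Kcnj3*), and to 0 to 3 with single arrays left out, all named after their values were seen. The count on the lower side went from 2 to 1 with the methods' t-test and with array weights, and was 1 to 2 with single arrays left out. It stayed at 2 with the slide row block, but there *S1pr2* replaced *Adcy7*. The count past the adjusted p went from 0 to 1 with the replicate block (*Gng8*) and to 7 with array weights, under which 1587 of all 22998 probes passed against 39. The cause of these changes was not tested.

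Samples with the same replicate number had deviations from their group means that correlated at -0.15, -0.03 and -0.18. Those with different numbers correlated at -0.07 to 0.18. With 3 arrays per group these values cannot show whether samples were handled in pairs, and the titles give no pairing. A replicate block cannot move a mean difference in this balanced design. Under it the SE of the *Rgs2* difference of 1.14 was 0.17, against 0.14 without it. With 1-colour arrays of this number, and 8 of 23 member probes too near background to test, faint transcripts such as *Rgs1* could not be compared.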
